A study of Mus musculus with 6 samples.

Results

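The 10 genes of iron handling were followed in mouse bone marrow-derived basophils (BMBAs) that were or were not stimulated with interleukin-3 (IL-3), a cytokine that drives the growth and activation of basophils. The 10 genes are Slc40a1, Tfrc, Steap3, Slc11a2, Slc11a1, Fth1, Ftl1, Hmox1, Ireb2 and Aco1, out of 37043 gene symbols in the count table. They were chosen by the measured counts of the same 6 libraries: the fall of Slc40a1 under IL-3 was among the largest in the table, and the other 9 were taken for their roles in the same pathway. All 10 had enough counts to enter the fit, as did 16675 symbols in all. Wild-type C57BL/6J mice gave the bone marrow, which was cultured for 7 days at an IL-3 dose of 0.3 ng/mL, and basophils were enriched with beads against CD49b. The BMBAs then received either 10 ng/mL IL-3 or phosphate-buffered saline (PBS) for 6 h, with 3 libraries in each group. Every library, the PBS group included, thus came from cells that had already been grown in IL-3. No library was taken before the 6 h of stimulation. A fall with IL-3 and a rise in the PBS cells, which received no IL-3 in these 6 h, therefore cannot be told apart. Words such as fall and rise name the difference between the 2 groups. The cells were of a whole enriched culture, not of a sorted subset, and the study's figure caption gives 3 cultures for each stimulation.

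Most mammalian cells take up iron bound to transferrin through the transferrin receptor, reduce it inside endosomes and pass it into the cytosol. Iron that is not used is stored in the ferritin shell, which is built of heavy and light chains, or leaves the cell through ferroportin, the only known iron exporter of mammals. Iron regulatory proteins sense the cytosolic pool and bind short hairpins in messenger RNAs, the iron-responsive elements: in a 5′ untranslated region they block translation, and in a 3′ untranslated region they protect the message from decay. Macrophages, which recycle iron from red cells, are known for high levels of many of these genes.

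The hairpins that tie several of these genes to iron sensing were read from the GENCODE transcripts of build GRCm38 and are shown to mark which members carry one. The letters searched were a C, any 5 bases and then CAGTGN, on the transcript strand, with at least 4 of the 5 bases after the bulged C able to pair with the 5 bases after the loop. In the lines that follow, the capitals mark the bulged C and the 6 bases of the loop.
Slc40a1, 5′ untranslated region, chr1:45925465-45925494, minus strand: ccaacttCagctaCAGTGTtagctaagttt
Fth1, 5′ untranslated region, chr19:9982731-9982760, plus strand: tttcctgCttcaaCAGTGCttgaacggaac
Ftl1, 5′ untranslated region, chr7:45459779-45459808, minus strand: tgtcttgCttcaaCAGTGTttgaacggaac
Tfrc, site 1 of 4 in the 3′ untranslated region, chr16:32631218-32631247, plus strand: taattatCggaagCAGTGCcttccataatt
Tfrc, site 2, chr16:32631597-32631626, plus strand: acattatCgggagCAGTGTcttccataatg
Tfrc, site 3, chr16:32631662-32631691, plus strand: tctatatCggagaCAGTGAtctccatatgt
Tfrc, site 4, chr16:32631709-32631738, plus strand: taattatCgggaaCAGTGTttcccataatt
Slc11a2, 3′ untranslated region of one of its transcripts, chr15:100395153-100395182, minus strand: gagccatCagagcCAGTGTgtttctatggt

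The sites of Slc40a1, Fth1, Ftl1 and Tfrc had all 5 pairs, and that of Slc11a2 had 4. The sites of the 2 ferritin genes had 27 of 30 bases in common. Of 21877 genes with a protein-coding transcript, 31 (0.142%) had a site with 5 of 5 pairs in a 5′ untranslated region and 129 (0.59%) had one in a 3′ untranslated region. With 4 or 5 pairs, the rule that Slc11a2 met, the shares were 0.946% for a 5′ and 3.99% for a 3′ untranslated region, and 10.7% of genes had such a site anywhere in a transcript. Slc11a1 had a match with 4 pairs inside its coding sequence, and no match was found in Hmox1, Ireb2, Aco1 or Steap3. A match is a matter of letters and was not a measure of binding. The counts were made per gene, so the transcript of Slc11a2 that holds the site could not be separated from those that lack it.

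Slc40a1 encodes ferroportin and lies on chromosome 1 at 45908068 to 45926523 on the minus strand. The PBS libraries held 308, 257 and 272 reads of it and the IL-3 libraries 43, 32 and 71. As normalised read counts (CPM, relative to the scaled library size) these were 25.2, 22.5 and 23.96 with PBS and 4.25, 2.67 and 5.51 with IL-3. Each PBS library thus lay far above each IL-3 library, and the IL-3 libraries spread over a wider relative range than the PBS libraries. The mean was 23.9 ± 1.33 CPM with PBS and 4.14 ± 1.42 CPM with IL-3 (SD, n = 3), a level 5.74-fold lower and a log2 fold change of -2.52. This fall was the 19th largest of 16675 genes. Since it was the reason for the choice of genes, it is given as a description and without a test. Hmox1, the member with the next largest fall, ranked 574. Leaving out IL-3 replicate 2 gave a log2 fold change of -2.28 and leaving out IL-3 replicate 3 gave -2.81. In RNA of whole cultures, fewer cells of a type and less RNA per cell cannot be told apart.

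**Figure D1:**
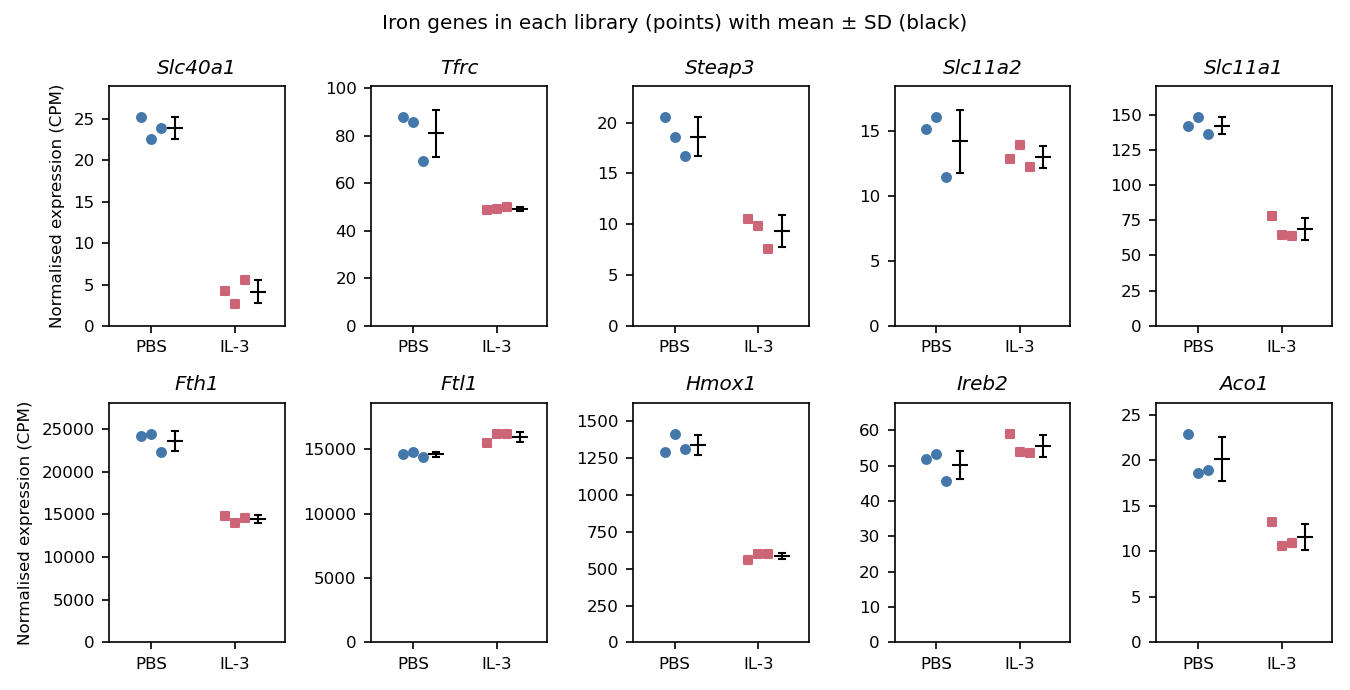
Normalised expression of each of the 10 iron genes in CPM (vertical axes from 0, each with its own range) in the 3 PBS libraries (circles) and the 3 IL-3 libraries (squares), with the mean and SD in black. The groups overlap for Slc11a2, nearly touch for Ireb2 and are apart for the other 8 genes.

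Of the 4 members with a role in import, Tfrc, Steap3 and Slc11a1 fell under IL-3 and Slc11a2 was not called. Tfrc, the transferrin receptor (chromosome 16, 32608920 to 32632794, plus strand), was at 87.7, 85.8 and 69.5 CPM with PBS and at 48.6, 49.1 and 50.2 CPM with IL-3. The lowest PBS library stood well above the highest IL-3 library, and the IL-3 libraries lay within a narrow band. The log2 fold change was -0.72 (95% interval -0.90 to -0.54, adjusted p = 4.9e-06 by edgeR's quasi-likelihood test over all genes). Steap3, the reductase that turns ferric into ferrous iron in the endosome (chromosome 1, 120190757 to 120272705, minus strand), was at 20.5, 18.6 and 16.7 CPM with PBS and at 10.6, 9.83 and 7.60 CPM with IL-3. Its groups were apart. Its change on the log2 scale was -1.005 (interval -1.31 to -0.69, edgeR adjusted p = 4.58e-05).

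Slc11a2 encodes DMT1, which carries ferrous iron out of the endosome (chromosome 15, 100387898 to 100425072, minus strand). It was at 15.1, 16.0 and 11.5 CPM with PBS and at 12.8, 13.9 and 12.3 CPM with IL-3. The IL-3 libraries lay inside the range of the PBS libraries. Its log2 fold change was -0.13 with an interval of -0.43 to 0.17 (edgeR adjusted p = 0.522), so that a fall as large as that of Tfrc lay outside the interval, whereas a small change in either direction did not. An exon of Slc11a2 overlaps Gm5475 on the other strand. Slc11a1 encodes NRAMP1, a metal transporter of the phagosome membrane that is known from macrophages (chromosome 1, 74375195 to 74386062, plus strand). It was at 142, 148 and 137 CPM with PBS and at 78.0, 64.9 and 64.1 CPM with IL-3. All IL-3 libraries were far under all PBS libraries. For Slc11a1 the log2 fold change was -1.05 (interval -1.21 to -0.89, edgeR adjusted p = 1.41e-08).

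The 2 ferritin chains, which were the most abundant members by far, differed in their response, although the small rise of Ftl1 turned with the scaling (-0.04 with library totals). Fth1, the heavy chain with the ferroxidase site (chromosome 19, 9980598 to 9985098, plus strand), was at 24193, 24422 and 22284 CPM with PBS and at 14852, 13974 and 14582 CPM with IL-3. The groups were wide apart. The log2 fold change was -0.71 (interval -0.79 to -0.63, edgeR adjusted p = 3.79e-10). Ftl1, the light chain (chromosome 7, 45457944 to 45459884, minus strand), was at 14608, 14795 and 14425 CPM with PBS and at 15472, 16180 and 16191 CPM with IL-3. The IL-3 libraries were all above the PBS libraries, but by little. For Ftl1 the log2 fold change was 0.13 (interval 0.06 to 0.19, edgeR adjusted p = 0.00411), and with library totals in place of scaling factors it was -0.04 (adjusted p = 0.402). That scaling moved the median of all genes by -0.16 on the log2 scale, so the direction of Ftl1 depended on the scaling and the fall of Fth1 did not.

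The ratio of the 2 chains within a library does not depend on the scaling. Counts of Fth1 divided by those of Ftl1 were 1.66, 1.65 and 1.54 with PBS and 0.960, 0.864 and 0.901 with IL-3. Fth1 thus held more reads than Ftl1 in each PBS library and fewer in each IL-3 library. The mean ratio was 1.62 ± 0.0627 with PBS and 0.908 ± 0.0485 with IL-3 (SD, n = 3). As a share of all counts, Fth1 took 2.49% ± 0.0974 with PBS and 1.36% ± 0.0561 with IL-3, whereas the shares of Ftl1, 1.54% ± 0.0181 and 1.503% ± 0.0243, overlapped between groups. Both genes together took 4.03% ± 0.102 of the counts with PBS and 2.87% ± 0.0424 with IL-3.

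Reads of Ftl1 are uncertain. Of the distinct stretches of 50 bases over all its transcripts, 50.9% also occur under other symbols, against 1.59% over all transcripts of Fth1. Exons of Ftl1 overlap Gm22133 on its own strand and Gm10252 on the other. The rows of the copies Ftl1-ps1, Ftl2-ps, Gm15590 and Ftl1-ps2 and of Gm22133, a miRNA annotated within Ftl1 itself (0.156%), held 38.2% of the summed Ftl1 counts, with a range of 38.0% to 38.4% over the 6 libraries. With these rows added to Ftl1, and the pseudogene rows Fth-ps2 and Fth-ps3 (19 and 8 reads in all) to Fth1, the ratio was 1.02, 1.02 and 0.958 with PBS and 0.594, 0.534 and 0.557 with IL-3. The groups were again apart, but with these rows added the heavy chain no longer exceeded the light chain in each PBS library. Rows were added if at least 20% of their own stretches of 50 bases occur in the gene or if they are named as its pseudogenes. Rows that share less, such as Gm12164 for Ftl1 (16.3%) and Gm6977 for Fth1 (12.5%), were left out. Summing the added rows left the log2 fold changes at -0.71 for Fth1 and 0.13 for Ftl1.

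**Figure D2:**
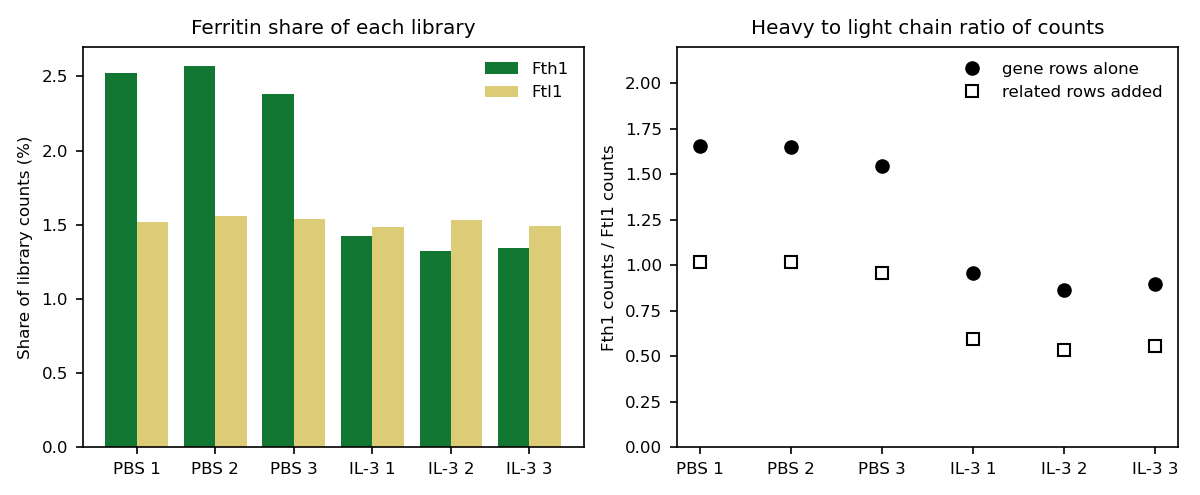
Left, share of all counts in percent that fell on Fth1 and on Ftl1 in each library; right, Fth1 counts divided by Ftl1 counts in each library, from the gene rows alone (filled) and after adding the related rows named in the text (open). The shares of Fth1 averaged 2.49% with PBS and 1.36% with IL-3 while those of Ftl1 overlapped, and both ratios were lower in every IL-3 library than in any PBS library.

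Hmox1, heme oxygenase 1, frees iron from heme (chromosome 8, 75093621 to 75100589, plus strand). It was at 1290, 1415 and 1310 CPM with PBS and at 560, 602 and 597 CPM with IL-3. The IL-3 libraries were all under the lowest PBS library by more than the spread of either group. The mean was 1338 ± 67.1 CPM with PBS and 586 ± 23.0 CPM with IL-3 (SD, n = 3), with a log2 fold change of -1.19 (interval -1.30 to -1.08, edgeR adjusted p = 2.19e-11).

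The 2 iron sensors differed from each other. Aco1 encodes iron regulatory protein 1, which is a cytosolic aconitase when it holds an iron-sulfur cluster (chromosome 4, 40143081 to 40198338, plus strand), and was at 22.9, 18.6 and 18.9 CPM with PBS and at 13.2, 10.6 and 10.9 CPM with IL-3. Its groups were apart. For Aco1 the log2 fold change was -0.81 (interval -1.09 to -0.52, edgeR adjusted p = 0.000178). Ireb2 encodes iron regulatory protein 2, which is degraded when iron is plentiful (chromosome 9, 54863789 to 54912530, plus strand), and was at 51.8, 53.3 and 45.6 CPM with PBS and at 59.0, 53.8 and 53.7 CPM with IL-3. Its IL-3 libraries were above the PBS libraries by less than the spread of either group. Its log2 fold change was 0.14 (interval -0.03 to 0.31, edgeR adjusted p = 0.181), and with library totals it was -0.02 (adjusted p = 0.879).

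Of the 9 members besides Slc40a1, 6 were called lower (Tfrc, Steap3, Slc11a1, Fth1, Hmox1 and Aco1), 1 higher (Ftl1) and 2 neither (Slc11a2 and Ireb2) at an edgeR adjusted p under 0.05, with a median log2 fold change of -0.72. Over all 16675 genes the response was broad: 38.2% were called, 18% higher and 20.2% lower, and the median was -0.0033. Groups did not overlap for 8 of the 9 members, and for 48.2% of all genes. The IL-3 libraries lay under the PBS libraries for 6 members and for 24.4% of all genes, and above for 2 members and 23.8% of all genes. The members had been chosen with results of the same contrast known, and nothing is read from their count.

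**Figure D3:**
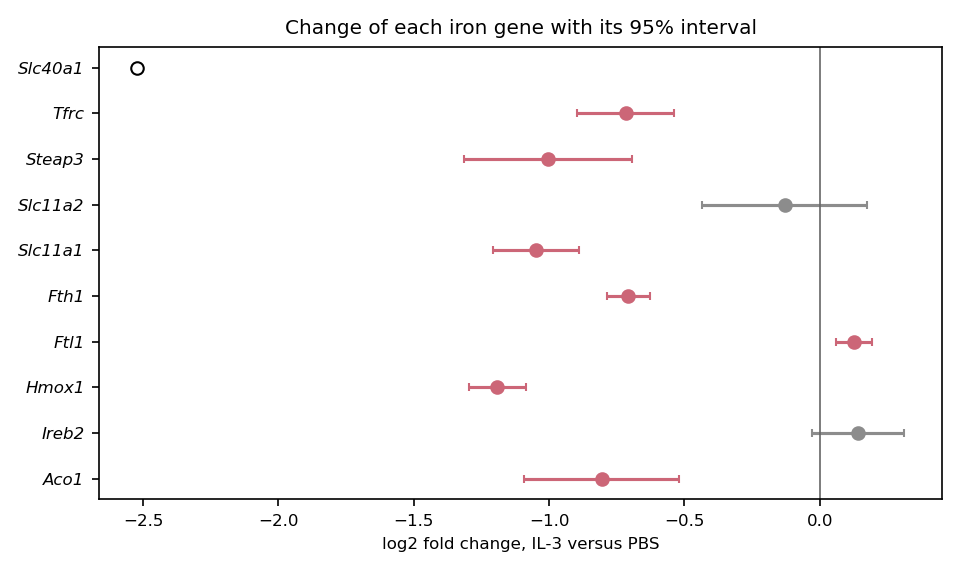
log2 fold change of each iron gene, IL-3 versus PBS, with its 95% interval from edgeR; red, adjusted p under 0.05; grey, not called; open circle, Slc40a1, shown without an interval because its fall led to the choice of genes. Of the genes with an interval, 6 lie wholly below 0, Ftl1 lies just above it, and the intervals of Slc11a2 and Ireb2 span it.

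Per kilobase of transcript, the order of mean levels with PBS was Fth1 (25439 CPM per kb), Ftl1 (15092), Hmox1 (853), Slc11a1 (61.5), Tfrc (16.6), Ireb2 (8.71), Slc40a1 (7.09), Steap3 (6.35), Aco1 (5.26) and Slc11a2 (4.70). Between neighbours, the ranges of Slc40a1 and Steap3, of Steap3 and Aco1 and of Aco1 and Slc11a2 overlapped. With IL-3, Slc40a1 was the lowest of the 10 at 1.23 CPM per kb, under Aco1 at 3.02, and the ranges of these 2 did not overlap. Ftl1 and Fth1 overlapped at the top of the order with IL-3, as did Tfrc at 10.1 and Ireb2 at 9.62 CPM per kb and Steap3 at 3.18 and Aco1, whereas Slc11a2 at 4.30 CPM per kb stood apart from its neighbours. The order of the ferritin genes is that of their own rows. With the related rows named above added, counts of Fth1 divided by those of Ftl1 were 0.958 to 1.02 with PBS and 0.534 to 0.594 with IL-3. Fth1 was then not above Ftl1 in every PBS library and was under it in every IL-3 library. The study captured messages on oligo-dT beads, and whether counts grew with transcript length was not tested. Without the division by length, Ireb2 at 55.5 CPM was above Tfrc at 49.3 CPM with IL-3. Aco1 was then above Steap3 in both groups (20.1 and 18.6 CPM with PBS, 11.6 and 9.33 CPM with IL-3). The place of Slc40a1 with IL-3 rests on the fall that chose the genes.

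The culture was checked against markers of basophils and of other cells that it could hold. The most abundant basophil markers were high in every library. Mcpt8 was at a mean of 3066 CPM with PBS and 5895 CPM with IL-3, and Hdc, the histamine-making enzyme, at 747 and 2048 CPM. Prss34, a basophil protease that was not called, was at 5615 and 5661 CPM. The sum of the 10 markers was 11225–12492 CPM with PBS and 17493–17737 CPM with IL-3, with 7 called higher and 2 lower. The 2 lower were Fcer1a, at means of 289.1 and 204 CPM (-0.50), and Cebpa, at 263.6 and 161.5 CPM (-0.71 on the log2 scale). Over all genes, 18% were called higher and 20.2% lower. Monocyte and macrophage markers were also abundant. Their sum over 15 genes was 12150–13106 CPM with PBS and 6337–6969 CPM with IL-3, and 12 of the 15 were called lower and 2 higher (median log2 fold change, -1.03). None of the 15 was at 0 in all libraries. Lyz2 changed by -0.97, Cd68 by -1.03 and C1qb, a complement gene of macrophages, by -1.06 on the log2 scale, whereas Adgre1, a macrophage surface marker, and Ly6c2, a monocyte marker, were called higher at 0.53 and 1.29. Lyz2 made up 81.35% to 82.15% of the sum, and without it the other 14 summed to 2188–2342 CPM with PBS and 1165–1255 CPM with IL-3, which was 0.5265 of the PBS mean. The macrophage sum with IL-3 was thus 0.514 of its PBS mean, beside 0.438 for Hmox1, 0.485 for Slc11a1, 0.501 for Steap3, 0.612 for Fth1, 0.608 for Tfrc and 0.173 for Slc40a1. Of the remaining members, Aco1 was at 0.575, Slc11a2 at 0.915, Ftl1 at 1.09 and Ireb2 at 1.10 of the PBS mean. The part of these cells in the falls of the iron genes was not tested.

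Markers of macrophages that recycle iron were scarce, with a sum over 8 genes of 26.2–35.6 CPM with PBS and 14.7–16.4 CPM with IL-3. Of the 5 tested, 2 were called lower, Axl at -1.05 and Nr1h3 at -1.69 on the log2 scale. Spic, the defining factor of splenic macrophages of this kind, was at a mean of 1.73 CPM with PBS and 1.82 CPM with IL-3, Cd163 had 17 reads in all and Timd4 had none. Markers of dividing cells summed to 666–733 CPM with PBS and 310–381 CPM with IL-3, and 9 of 10 were called lower, among them Mki67 (-1.04), Top2a (-0.91) and Birc5 (-1.18 on the log2 scale). Tfrc is known to be high in dividing cells, and the part of division in its fall was not tested. Erythroid markers, another source of transferrin receptor, summed to 116–234 CPM with PBS and 64.2–108 CPM with IL-3, and 3 of 6 tested were called lower, the near-identical globin genes Hba-a1 (-1.14) and Hba-a2 (-1.13) and the erythropoietin receptor Epor (-1.34). The other 3 were not called, at 0.64 for Hbb-bs, 0.34 for Hbb-bt and 0.34 for Ermap on the log2 scale, and without IL-3 replicate 1 a single marker (1) was called higher.

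Markers of the other types gave sums of 874–977 and 1481–1612 CPM for mast cells (5 of 7 tested called higher), 129–164 and 199–264 CPM for neutrophils (3 of 8 higher, 1 lower; up to 6 higher without PBS replicate 1 or 2 and 5 without IL-3 replicate 2, and up to 3 lower without PBS replicate 2), 157–175 and 99.0–139 CPM for eosinophils (1 of 6 higher, 3 lower) and 9.08–12.5 and 32.4–36.0 CPM for NK and T cells (1 of 2 higher), with PBS and IL-3 in that order. The last sum was mostly Nkg7, at means of 6.29 and 29.3 CPM; Cd3d was not called, at 2.03 and 2.45 CPM, Gzma had 0 reads and the other 6 had too few to be tested. The eosinophil sum was mostly Ear2, called lower at means of 134.5 and 51.3 CPM, whereas Prg2 was called higher at 4.27 and 49.8 CPM. Among neutrophil markers, Retnlg was called higher at 11.3 and 69.2 CPM, and Mpo was called lower at 42.9 and 27.65 CPM. No mast cell marker (0) was called lower, but 1 was when a single library was left out. The part of all these cell types in the results was not tested either.

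**Figure D4:**
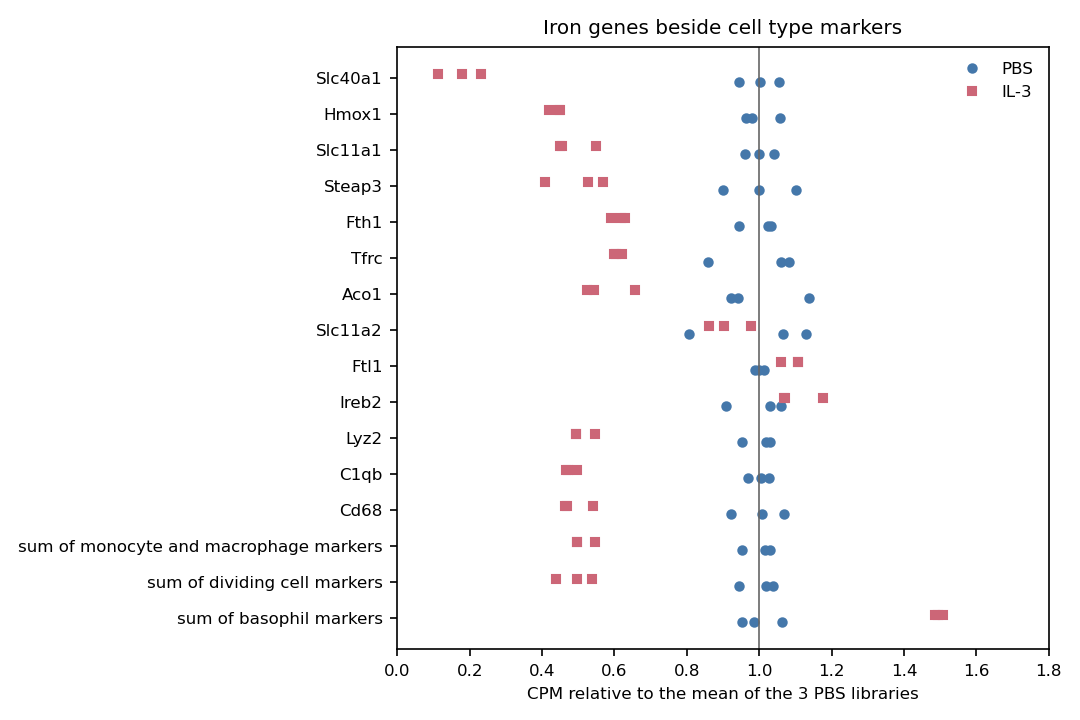
Level of the 10 iron genes, 3 macrophage markers and 3 marker sums in each library, as CPM divided by the mean of the 3 PBS libraries (axis from 0; circles, PBS; squares, IL-3). Slc40a1 in the IL-3 libraries lies at 0.111 to 0.230 of its PBS mean, under the macrophage sum at 0.497 to 0.547. In the same libraries, the 6 members called lower lie between 0.408 and 0.657, and Slc11a2, Ftl1 and Ireb2 between 0.862 and 1.18. The sum of basophil markers lies between 1.487 and 1.507 there.

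Among 108 further genes of iron metabolism found in the table, in 9 lists, 93 could be tested, 24 of which were called higher and 25 lower (52.7% called, beside 38.2% of all genes), and their median log2 fold change was -0.056 beside -0.0033 over all genes. With library totals, 13 were called higher and 40 lower. In the list of heme breakdown and transport, 8 of 10 were called lower and 1 higher, where 20.2% of all genes were called lower and 18% higher, and the median was -0.63. Blvrb, which reduces the biliverdin that heme oxygenase makes, was at 231 ± 10.5 CPM with PBS and 112 ± 7.33 CPM with IL-3 (SD, n = 3; log2 fold change -1.04, edgeR adjusted p = 1.73e-09). Hebp1, a heme-binding protein, was at 39.5 ± 3.79 and 14.7 ± 1.124 CPM (-1.43, edgeR adjusted p = 2.47e-08), and Flvcr1, a transporter of choline first described as a heme exporter, was at 67.8 ± 4.61 and 32.6 ± 2.19 CPM (-1.06, edgeR adjusted p = 3.67e-08). Counts of Hmox1 divided by those of Blvrb were 5.80 ± 0.422 with PBS and 5.26 ± 0.473 with IL-3 and overlapped between groups. In heme synthesis, 4 of 12 tested genes were called lower and 2 higher, with a median of -0.14. The 2 higher calls became 1 without PBS replicate 1, IL-3 replicate 1 or IL-3 replicate 2, and 0 without PBS replicate 2 or IL-3 replicate 3, and with library totals 6 were lower and 0 higher. Tmem14c, a mitochondrial porphyrin transporter, was at -0.43, Urod, which decarboxylates uroporphyrinogen, at -0.63, and Fech, which inserts iron into the porphyrin ring, at -0.37 on the log2 scale, and all were called lower.

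Ferroportin protein is cleared after hepcidin binds it, and the gene of hepcidin, Hamp, had 4 reads in all 6 libraries. Of the list of export and its control, 2 of 11 genes in the table could be tested. Rnf217, a ubiquitin ligase reported to degrade ferroportin, was at 16.0, 16.3 and 16.0 CPM with PBS and at 56.4, 50.5 and 54.5 CPM with IL-3. Its groups were far apart, in the opposite direction to Slc40a1. The log2 fold change was 1.74 (edgeR adjusted p = 2.16e-10). Hfe, a partner of the transferrin receptor, was at 16.6 ± 1.79 CPM with PBS and 7.42 ± 2.14 CPM with IL-3 (-1.18, edgeR adjusted p = 6.44e-05).

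Of 8 other uptake genes tested, 3 were called higher, 1 lower and 4 neither (50% called, beside 38.2% of all genes), with a median of -0.27. Slc39a8, the metal importer ZIP8, was at 4.58, 4.56 and 4.05 CPM with PBS and at 18.6, 16.99 and 13.8 CPM with IL-3. Each IL-3 library thus held a clear excess over each PBS library. Its log2 fold change was 1.89 (edgeR adjusted p = 1.21e-07), that of Slc39a14, ZIP14, was 0.71, and that of Lcn2, which carries iron-binding siderophores and is also one of the neutrophil markers called higher, was 0.47. The scavenger receptor Lrp1 was called lower (-0.74, edgeR adjusted p = 1.65e-06). Of genes for storage and release from ferritin, 2 of 5 were called lower and none higher (40% called, beside 38.2% of all genes). The 2 were Mcoln1, an iron-permeable lysosomal channel (-0.61, edgeR adjusted p = 1.94e-05), and Pcbp3 (-0.90, edgeR adjusted p = 0.035). Pcbp3 was scarce, with 130 reads in all and means of 2.435 CPM with PBS and 1.317 CPM with IL-3. The number of storage and release genes called lower was 1 without PBS replicate 1 or 3 or without IL-3 replicate 2 or 3, and 4 with library totals. In uptake the number lower was 2 without IL-3 replicate 2. Ncoa4, the receptor for ferritin autophagy, had a log2 fold change of 0.03 and was not called.

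In the list of iron sensing, 3 of 10 genes were called higher and 1 lower (40% called, beside 38.2% of all genes). The 1 lower call was lost (0) without PBS replicate 1 or 3 or IL-3 replicate 3, whereas with library totals 1 was higher and 3 were lower. Hif1a, a transcription factor whose degradation needs iron, was at 88.4 ± 3.98 CPM with PBS and 154 ± 10.1 CPM with IL-3 (SD, n = 3; log2 fold change 0.80, edgeR adjusted p = 7.04e-08). Cul1, a ubiquitin ligase scaffold, was called higher at 0.33 and Egln3, a prolyl hydroxylase that needs iron, at 0.37 on the log2 scale. Fbxl5, the iron-binding ligase subunit that removes iron regulatory protein 2, was at -0.14 and was not called. Of 23 genes for mitochondrial iron and iron-sulfur clusters, 4 were called higher and 4 lower (34.8% called, beside 38.2% of all genes), with a median of 0.0085. The number lower was 2 without PBS replicate 2, IL-3 replicate 1 or IL-3 replicate 3, and the number higher was 2 without IL-3 replicate 2. With library totals, 1 was higher and 7 were lower. Among them Hscb, a cochaperone of cluster transfer, was at -1.17, Cisd1 at -0.83 and Cisd2 at 0.55. Of 8 genes of cytosolic iron-sulfur assembly, 3 were called higher and 1 lower (50% called, beside 38.2% of all genes). The 3 higher were Ciapin1 (0.36), Ciao2b (0.48) and Mms19 (0.33 on the log2 scale). The call lower was lost (0) without PBS replicate 2 or IL-3 replicate 1 or 2. With library totals, 1 of the 8 was higher and 2 were lower.

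**Figure D5:**
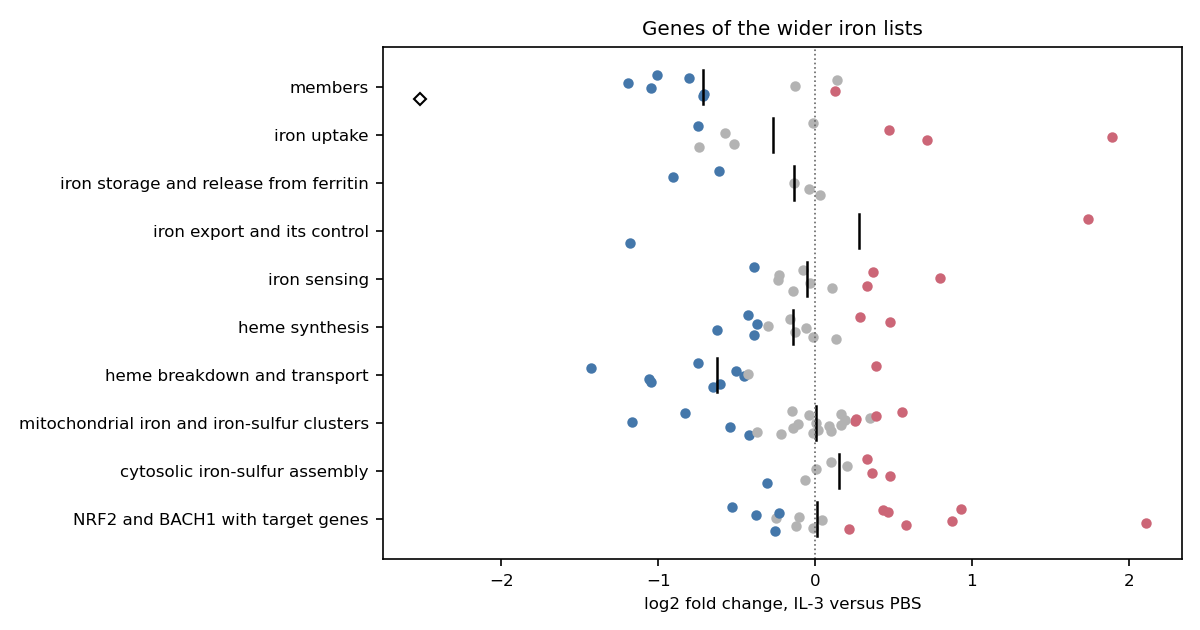
log2 fold change, IL-3 versus PBS, of each tested gene in the 10 members and the 9 other iron lists (red, called higher; blue, called lower; grey, not called; open diamond, Slc40a1, given without a test), with the median of each list without Slc40a1 as a black bar and the median of all genes as a dotted line. The medians of the members (-0.72) and of heme breakdown and transport (-0.63) lie furthest below the dotted line.

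Promoter windows of 300 bases from RefSeq (GRCm38.p6) were found for 7 of the 10 members, 12 windows in all. Neither TGACNNNGC, the core of the antioxidant response element, nor TTCNNNGAA, the form bound by STAT factors, occurred in any of the 12 on either strand. Over 32851 promoters these letters occurred in 12.4% and 8.3%. Slc40a1, Slc11a2 and Hmox1 were not among the 7.

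Library totals were 10619733 to 11737190 reads with PBS and 10537540 to 13999287 with IL-3. A count of 3 reads, taken as a floor from counting error only, was worth 0.233 to 0.296 CPM, and counts of 0 were not raised to it. A single ribosomal RNA gene held 13.4% to 16.5% of the reads. Pearson correlations of log2 CPM across genes were 0.985 to 0.988 within groups and 0.952 to 0.957 between them, and no pair of libraries agreed within sampling noise.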

How the data were processed

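The study's methods describe direct lysis of the BMBAs, adapter removal with Cutadapt 3.4 and alignment with Bowtie2 to GRCm38, whereas the submitters' processing notes name GRCm39. The authors deposited raw read counts per gene symbol, not normalised and with replicates separate. The sources used here do not say whether counting used strand. From the counts, genes were kept by filterByExpr and scaled by TMM, and the 2 groups were compared in edgeR 4.0.16 (quasi-likelihood test, group only, R 4.3.3), with Benjamini-Hochberg adjustment over 16675 genes and a threshold of 0.05. CPM used TMM-scaled library sizes. The method was tested on simulated data. Coordinates, lengths and untranslated regions came from GENCODE M21 (GRCm38), and levels per kilobase used 1 principal transcript per gene. Genes named were the 10 members, up to 3 called genes with the smallest adjusted p of each iron list, up to 3 genes with the highest mean CPM of each marker list and the 5 genes most like Slc40a1. Slc39a14, Ncoa4, Fbxl5, Hamp, Bach1, Osgin1, Srxn1, Nfe2l2, Slc7a11, Fcer1a, Cebpa, Hbb-bs, Hbb-bt, Ermap, Gzma, Adgre1, Ly6c2, Cd163, Spic and Timd4 were named after their values were seen. The members and lists were chosen with earlier results of these data known. Alternatives were DESeq2 1.42.0, limma-voom (limma 3.58.1), other scalings and filters, a stricter threshold, each library left out, a replicate block and, chosen after seeing the data, removal of the ribosomal RNA gene. The replicate numbers did not pair the samples.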

Additional observations from a re-analysis of the deposited data

How the results depend on the processing

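The 6 members called lower were called lower under all 16 alternatives. With library totals in place of TMM, which shifted the median of all genes by -0.16 on the log2 scale, 1698 genes were called higher and 5030 lower instead of 3003 and 3372, no member (0) was called higher, and 13 of the other iron genes were called higher and 40 lower instead of 24 and 25. Under that scaling the log2 fold changes of Ftl1 (-0.036) and Ireb2 (-0.020) turned negative, and the genes lower in the list of NRF2 and BACH1 numbered 8 instead of 4. Leaving out 1 library at a time gave 2482 to 2787 genes higher and 2883 to 3108 lower over all genes. Deviations of libraries with the same replicate number did not correlate (r of -0.0087, -0.016 and -0.022), and a replicate block gave 2842 genes higher and 3247 lower and 1 member higher and 6 lower. The members' low counts limit Slc40a1 most, with 32 to 71 reads per IL-3 library.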

Other observations

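The list of NRF2 and BACH1, the factors that set the transcription of heme oxygenase and ferritin genes, with other target genes held 7 called higher and 4 lower of 16 tested, with a median log2 fold change of 0.013, where 38.2% of all genes were called. With library totals, 5 were called higher and 8 lower. Maff, a small partner of these factors, was at 8.21 ± 2.17 CPM with PBS and 35.6 ± 5.19 CPM with IL-3 (SD, n = 3; log2 fold change 2.11, edgeR adjusted p = 4.45e-08), and Nqo1, a quinone reductase, was at 61.8 ± 0.538 and 113 ± 9.66 CPM (0.88, edgeR adjusted p = 5.2e-08). Gsr, glutathione reductase, was also called higher, at 0.46. The 4 called lower were Osgin1 (-0.53), Srxn1, sulfiredoxin (-0.38), Nfe2l2, which encodes NRF2 itself (-0.26), and Slc7a11, the cystine transporter (-0.23 on the log2 scale), so that the list held calls in both directions. Bach1 was at -0.016 and was not called.

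The genes whose log2 CPM followed that of Slc40a1 most closely over the 6 libraries, among 7004 compared, were Tmem50a (Pearson r of 0.9994), Tlnrd1 (0.9980), Phf21a (0.9978), Ear10 (0.9977) and S1pr1 (0.9974). Their differences were smaller than that of Slc40a1, with log2 fold changes of -0.20, -0.50, -0.67, -1.39 and -0.83 in that order beside -2.52. The libraries form 2 groups, so that 590 of the 7004 genes had r of at least 0.95, and these values describe the difference between groups as much as any likeness within them.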
